A study of Mus musculus with 77 samples.

Results

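Collagens and laminins are the protein chains that build the extracellular matrix, and 55 of them were measured in the retina of mice with oxygen-induced retinopathy (OIR). The chains were taken as every gene on the array whose symbol has the form of a collagen chain (*Col* followed by a type number, *a* and a chain number) or of a laminin chain (*Lama*, *Lamb* or *Lamc*). They were represented by 77 probes, and the probe with the brightest mean signal stood for each gene, giving 55 chains of 21154 named genes. Of these, 17 were basement membrane chains, namely 6 type IV collagen chains and 11 laminin chains (5 alpha, 3 beta and 3 gamma), and 38 were fibrillar and other collagen chains.

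Basement membranes are thin sheets on which endothelial cells and pericytes of a vessel sit, and the inner limiting membrane of the retina is another. Laminins are trimers of an alpha, a beta and a gamma chain that polymerise at the cell surface, while type IV collagen trimers form a separate network that nidogen and perlecan link to the laminin sheet. Fibrillar collagens, by contrast, make the rope-like fibrils of sclera, cornea, vitreous and the outer coats of larger vessels. In OIR, high oxygen closes the capillaries of the central retina, and new vessels grow after the return to room air.

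All mice were C57BL/6. On postnatal day 7 (P7) litters were assigned either to 75% oxygen until P12, followed by room air (the OIR group), or to 21% oxygen throughout (the control), and retinas were taken on P12, P17 and P28. Each OIR group held 13 mice, and the controls were 12 mice at P12, 12 at P17 and 14 at P28. Both retinas of a mouse were pooled, each mouse gave 1 array, and since the sources used here do not tie mice to litters, littermates count as separate samples. Each retina was hybridised with a common mouse reference RNA, and values are log2 ratios of retina over reference. The labels give the retina as Cy5, but 3 rod photoreceptor genes were brighter in Cy3 on all 77 arrays, by at least 2.05 on the log2 scale, so Cy3 was read as the retina. Every sign below rests on that reading and is opposite to the labelled dyes. A ratio compares a chain with itself between mice, so the ratio of a probe was not read as higher or lower than that of another probe. Ratios of different probes were combined in correlations across mice, in means over marker lists and in means over the probes of a gene. In whole retina, fewer cells of a type and less RNA per cell cannot be told apart.

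The arrays were scanned on 4 days, and the scan day moved with the measurements. Between 15895 and 24707 probes were well above background on the 24 arrays of the third day, against 20904 to 34306 on the 32 arrays of the last day. The last day held 11 of 13 OIR and 9 of 14 control mice on P28, but 2 of 13 and 5 of 12 on P17. In addition, 4 arrays correlated with the rest of their group at a median r under 0.85: 1 control mouse on P12 (0.780), 1 OIR mouse on P17 (0.828) and 2 OIR mice on P28 (0.805 and 0.831), while the other 73 were at 0.863 or above. Values without these arrays, or with slide or scan day as a block, are given beside several results below.

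Of the 55 chains, 16 were well above background in the retina on all 77 arrays, and 33 were on more than 38 of them, among them 13 of the 17 basement membrane chains and 20 of the 38 others. The probes chosen for *Col13a1* and *Col15a1* were well above background on none, and a second probe of *Col15a1* was on 1. *Lama4*, the laminin alpha chain of vessel walls, was well above background on 46 arrays, and *Lama2* on 38. In the reference channel, *Col9a1* was well above background on 2 arrays, *Lama4* on 1, *Lama1* on 12, *Col23a1* on 18 and *Col22a1* on 0. The ratios of these chains are therefore mostly over a reference near background. *Col4a1*, *Col4a2*, *Lamb1* and *Lamc1* were well above background there on all 77. Unless said otherwise, values are offset ratios, with a constant of 50 added to each background-corrected signal before the log, which draws the ratios of dim spots towards 0.

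The genes of *Col4a1* and *Col4a2*, which encode the chains of the most widespread type IV collagen, stand head to head. The windows from 250 bases before to 50 bases after their annotated starts are shown because both genes share this stretch and moved together in the data below. The 78 shared bases are in capitals, each window is written 5′ to 3′ on its own gene's strand, and the coordinates are those of RefSeq on GRCm38.p6: chr8:11312777-11313076 on the minus strand for *Col4a1* and chr8:11312555-11312854 on the plus strand for *Col4a2*.
Col4a1: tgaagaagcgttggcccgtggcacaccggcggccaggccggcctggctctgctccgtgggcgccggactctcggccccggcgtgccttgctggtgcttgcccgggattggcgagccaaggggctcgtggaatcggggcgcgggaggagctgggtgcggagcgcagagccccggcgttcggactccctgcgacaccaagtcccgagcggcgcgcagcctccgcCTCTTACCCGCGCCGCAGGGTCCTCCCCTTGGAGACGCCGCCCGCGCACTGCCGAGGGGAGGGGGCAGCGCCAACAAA
Col4a2: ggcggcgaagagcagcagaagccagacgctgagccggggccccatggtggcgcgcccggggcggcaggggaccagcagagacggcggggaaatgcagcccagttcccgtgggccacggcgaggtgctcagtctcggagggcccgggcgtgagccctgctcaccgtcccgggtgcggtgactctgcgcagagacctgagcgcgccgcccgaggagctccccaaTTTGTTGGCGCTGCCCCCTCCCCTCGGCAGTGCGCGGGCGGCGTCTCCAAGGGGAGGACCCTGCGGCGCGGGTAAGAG
The starts used for these windows lie 21 bases apart, while the annotated extent of *Col4a1* reaches to base 11312889 of chromosome 8, past both of them. The genes of *Col4a5* and *Col4a6* also point away from each other, and the starts in the same promoter table lie 1343 bases apart on chromosome X.

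On P12, at the end of the oxygen exposure, 0 of the 55 chains passed the test (adjusted p under 0.05, limma with Benjamini-Hochberg adjustment over all probes), beside 0% of all 21154 genes called higher and 0.0567% called lower in the OIR group. At an unadjusted p under 0.05 there were 3 chains, 1 higher and 2 lower. The share of all genes under that unadjusted threshold was not counted, so this number is not a result about the chains. *Col4a1* lay at -2.03, -1.11 and -0.59 (lowest, median and highest of 13 OIR mice) and at -1.32, -1.02 and -0.46 in the 12 controls. The difference was -0.18 (SE 0.12, 95% interval -0.43 to 0.06, adjusted p = 1), and the groups overlapped. *Col4a2* differed by -0.08 (SE 0.16), *Lamb1*, the beta chain of most vascular laminins, by -0.18 (SE 0.07), and *Lamc1*, the gamma chain shared by most laminins, by -0.11 (SE 0.09), none of which passed. Over the 17 basement membrane chains the median difference was -0.03, and over the 38 others it was 0.00.

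Other genes of the same tissue did pass on P12, when 0% of all genes were called higher and 0.0567% lower. Fibronectin (*Fn1*), a matrix glycoprotein and 1 of 10 listed partners of the basement membrane, fell by 0.61 (SE 0.08, adjusted p = 0.00126). The endothelial gene *Egfl7*, 1 of 12 endothelial markers called, fell by 0.86 (SE 0.09, adjusted p = 7.33e-05), and *Abcc9*, 1 of 10 mural markers, by 0.37 (SE 0.05, adjusted p = 0.000547). Averaged over the 12 endothelial markers, the log2 ratio ran from 0.11 to 0.42 in OIR mice and from 0.37 to 0.77 in controls.

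On P17, during vessel regrowth, 9 of 55 chains rose in the OIR group and 0 fell, beside 1.65% of all genes called higher and 0.652% called lower. The 9 were 6 of the 17 basement membrane chains (*Col4a1*, *Col4a2*, *Lamc1*, *Lamb1*, *Lama5* and *Lamc3*) and 3 of the 38 others (*Col2a1*, *Col5a3* and *Col18a1*). The median difference was 0.14 over the basement membrane chains, 0.01 over the others and -0.00 over all genes. Among chains well above background on more than 38 arrays, it was 0.26 over 13 basement membrane chains and 0.17 over 20 others. Over the 11 fibrillar chains, of which 2 were called, it was 0.49. In the 6 slides that carried both groups, the mean of the OIR mice was higher for each of the 9 chains on 6 of 6. The same held for some chains that were not called, among them *Col1a1* and *Col1a2*, and these are the arrays that gave the calls. Under median centring of the arrays none of the 9 passed, and 4 of all 21154 genes did.

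**Figure D1:**
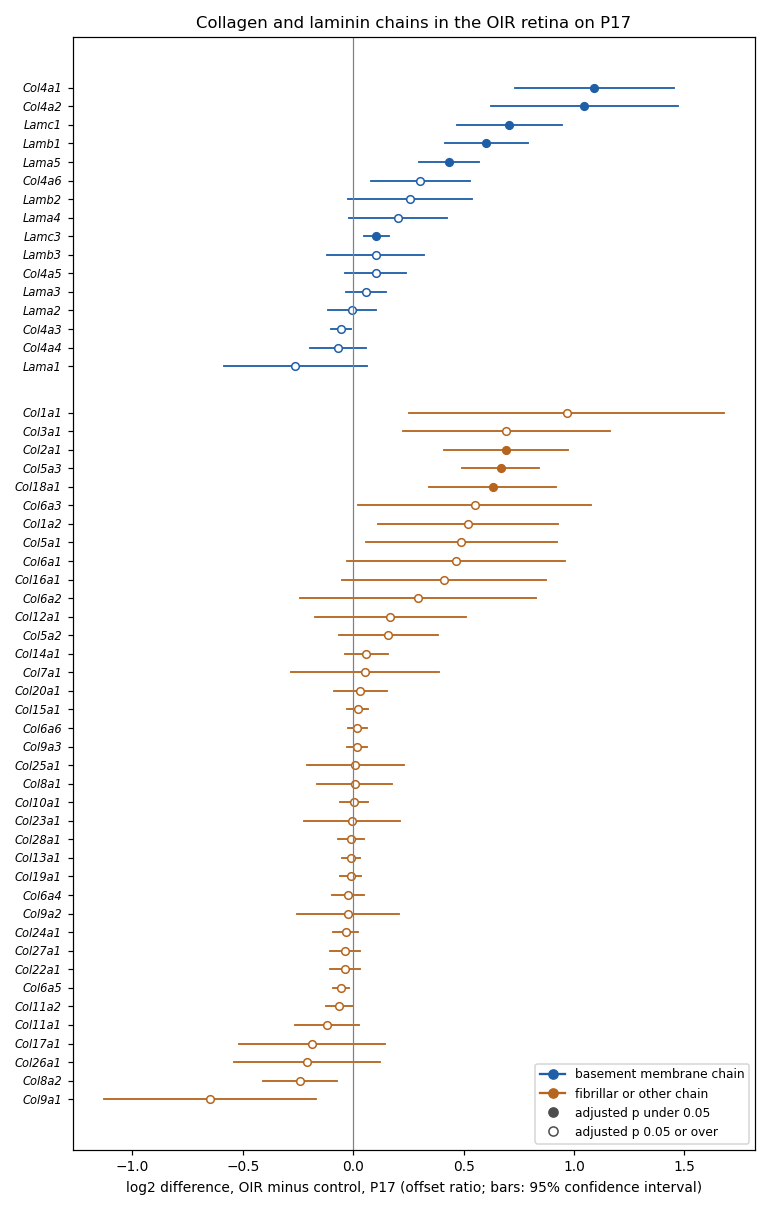
Log2 difference between 13 OIR and 12 control mice on P17 for the chains reported here, with 95% confidence intervals from limma; blue marks basement membrane chains and brown the others, and filled points passed an adjusted p of 0.05. The 6 filled blue points run from 0.11 to 1.09 and the 3 filled brown points from 0.63 to 0.69, while *Col1a1* at 0.97 has an interval of 0.25 to 1.68 and did not pass.

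The largest rise was that of the type IV collagen pair. *Col4a1* lay at -0.60, -0.24 and 1.12 (lowest, median, highest) in the OIR mice and at -1.81, -1.14 and -0.49 in controls, and 11 of 13 OIR mice were above every control. The difference was 1.09 (SE 0.17, 95% interval 0.73 to 1.45, adjusted p = 0.000591). *Col4a2* lay at -0.81, -0.23 and 0.66 against -2.10, -1.03 and -0.43, a difference of 1.05 (SE 0.21, adjusted p = 0.00605), with 10 of 13 OIR mice above every control. Within scan days the *Col4a1* difference was 1.0 (5 OIR against 3 control mice), 0.80 (6 against 3) and 1.79 (2 against 5). The other 4 type IV chains, which make the trimers of kidney, lens capsule and smooth muscle, were not called, and their differences ran from -0.07 to 0.30.

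Among the laminins, chains of each position in the trimer rose. *Lamc1* lay at -1.30, -0.92 and -0.73 in the OIR mice and at -2.51, -1.54 and -1.32 in controls. All 13 OIR mice were above every control, and the difference was 0.71 (SE 0.12, adjusted p = 0.000739). *Lamb1* lay at -1.53, -1.11 and -0.55 against -1.98, -1.79 and -1.35, a difference of 0.60 (SE 0.09, adjusted p = 0.000318), with 11 of 13 OIR mice above every control. *Lama5*, the alpha chain of mature endothelial basement membranes, lay at -1.17, -0.98 and -0.59 against -1.68, -1.39 and -0.99, a difference of 0.43 (SE 0.07, adjusted p = 0.000309), with 8 of 13 OIR mice above every control.

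*Lamc3*, another laminin gamma chain, lay at -0.04, 0.03 and 0.15 in the OIR mice and at -0.20, -0.06 and 0.02 in controls, and differed by 0.11 (SE 0.03, adjusted p = 0.0468), with 7 of 13 OIR mice above every control. This call was lost under 7 of 13 alternative settings, among them slide as a block and the fit without the 4 arrays that stood apart. *Lama1*, the alpha chain of the inner limiting membrane, did not pass at -0.26 (SE 0.16, adjusted p = 0.584). *Lama4* (0.20, SE 0.11) and *Lamb2* (0.26, SE 0.14), both laminin chains of vessel walls, also missed the threshold.

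**Figure D2:**
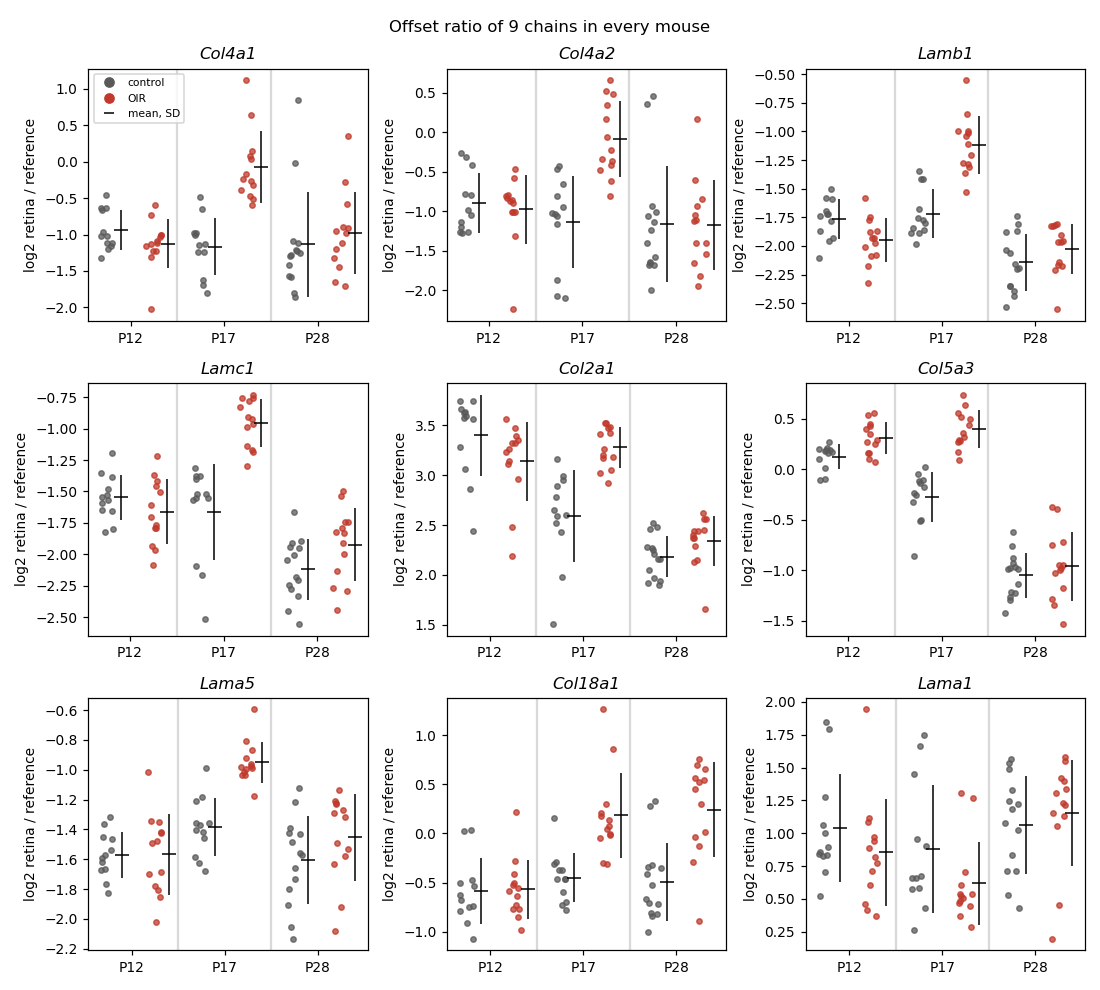
Log2 ratio of retina over reference (offset ratio) in every mouse for 9 chains, by postnatal day; grey points are control and red points OIR mice, with the mean and SD of the group beside them. On P17 the 13 OIR mice of *Lamc1* and *Col5a3* lie above all 12 controls, and on P12 the groups overlap for all 9 chains.

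Of the 38 other chains, *Col5a3*, a minor fibrillar chain of type V collagen, lay at 0.09, 0.35 and 0.74 in the OIR mice and at -0.86, -0.21 and 0.02 in controls. All 13 OIR mice were above every control, a difference of 0.67 (SE 0.08, adjusted p = 2.65e-05). *Col2a1*, the main fibrillar collagen of the vitreous, lay at 2.92, 3.26 and 3.53 against 1.51, 2.63 and 3.16, a difference of 0.69 (SE 0.14, adjusted p = 0.00649). Its call was lost in the deposited ratio, the authors' own processed log2 ratio with no added constant, where the difference was 0.55 (adjusted p = 0.51). *Col18a1*, whose C-terminal fragment is endostatin and which is itself a component of basement membranes, lay at -0.31, 0.07 and 1.26 against -0.78, -0.46 and 0.16. The difference was 0.63 (SE 0.14, adjusted p = 0.0181), with 5 of 13 OIR mice above every control, and a second probe of the gene rose by 0.68 (SE 0.10, adjusted p = 0.000226). Of the other chains with more than 1 probe, none had a further probe called on P17.

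The main fibrillar chains spread widely between mice. *Col1a1*, of type I collagen, lay at -5.54, -3.83 and -2.97 in the OIR mice and at -6.47, -4.57 and -2.86 in controls, a difference of 0.97 (SE 0.35, adjusted p = 0.255). *Col1a2* (0.52, SE 0.20), *Col3a1* (0.69, SE 0.23) and *Col5a1* (0.49, SE 0.21) did not pass either. With slide as a block, *Col1a1* passed at 0.89 (adjusted p = 0.0497). With an offset of 0, *Col1a1* (1.61), *Col3a1* (1.09) and *Col5a1* (0.79) passed. The retina channel without the reference called *Col1a1* (0.88), *Col1a2* (0.44) and *Col3a1* (0.54). Array weights called *Col1a1* (0.86) and *Col3a1* (0.59), and *Col3a1* also passed without background subtraction (0.81). None of these chains passed with scan day as a block, under median centring or without the arrays that stood apart. Within scan days the *Col1a1* difference was 0.70, 0.88 and 0.71. *Col9a1*, the type IX collagen of the vitreous, had the lowest difference of the 55 chains at -0.65 (SE 0.23, adjusted p = 0.26) and was called lower with slide as a block (-0.53), with scan day as a block (-0.51), with array weights (-0.61) and in the retina channel without the reference (-0.44).

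In the deposited ratio, 15 chains (7 basement membrane chains and 8 others) were called higher on P17, beside 3.24% of all genes. Of the 9 chains above, 7 were among them. The chains it added were *Lama4* (1.32), *Col4a6*, *Col1a1* (1.65), *Col1a2* (0.74), *Col3a1* (1.25), *Col5a1* (0.85), *Col5a2* and *Col6a3*. *Lamc3* and *Col2a1* were not called there. *Col4a1* rose by 2.02 in the deposited ratio against 1.09 in the offset ratio. No chain was called in the reference channel by itself, where the difference of *Col4a1* was -0.02.

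Genes that act with the chains rose on the same day, when 1.65% of all genes were called higher and 0.652% lower. Of 10 listed basement membrane partners, 6 rose, among them *Fn1* (1.76, SE 0.13), the proteoglycan perlecan *Hspg2* (1.17, SE 0.15), the linker *Nid1* (1.04, SE 0.17) and *Fbln1* (0.75, SE 0.18). Of 14 chains of matrix receptors, 3 rose, namely the laminin-binding integrin chain *Itga6* (0.89, SE 0.10), its partner *Itgb1* (0.73, SE 0.13) and *Itga7* (0.23, SE 0.05). Of 21 measured genes for the modification and processing of collagen, 5 rose, among them *Pcolce*, an enhancer of procollagen cleavage (2.76, SE 0.20), *Loxl2*, a crosslinking oxidase (1.12, SE 0.18), the collagen chaperone *Serpinh1* (1.05, SE 0.14) and the procollagen protease *Bmp1* (0.95, SE 0.09). Of 13 matrix proteases and their inhibitors, 3 rose, the inhibitors *Timp1* (0.86, SE 0.21) and *Timp3* (0.39, SE 0.08) and the protease *Adamts1* (0.68, SE 0.11). None of these 4 lists had a gene called lower on P17.

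Markers of cell types moved on P17 as well, beside 1.65% of all genes called higher and 0.652% called lower. Of 12 endothelial markers 1 was higher, *Egfl7* at 1.09 (SE 0.09), and of 10 mural markers 3 were higher (*Tagln* at 1.03, *Cspg4* at 0.73 and *Notch3* at 0.63). Of 8 markers of fibroblasts and sclera, 1 was higher (*Mgp* at 1.14), and *Dpt* was well above background on no array. The mean ratio over the mural markers ran from -0.69 to -0.23 in OIR mice and from -1.07 to -0.53 in controls, that over the endothelial markers from 0.55 to 1.14 and from 0.24 to 0.85, and that over the fibroblast markers from -1.58 to -0.69 and from -1.92 to -0.73. Of 8 pigment epithelium markers 1 was lower (*Rpe65* at -0.81), and of 10 lens markers 1 was lower (*Bfsp2* at -0.31). Of 8 Mueller glia markers 1 was higher (*Vim* at 1.19), while the list's mean ratio had a median of 2.61 in OIR mice and 2.72 in controls. Of 5 astrocyte markers 2 were higher (*Gfap* at 0.98 and *Aldh1l1* at 0.41), and the list's mean ratio ran from 0.73 to 1.1 in OIR mice and from 0.38 to 1.03 in controls. Of 8 rod markers 0 passed. The part of these cell types in the rise of the chains was not tested.

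From P12 to P17 the OIR effect itself rose for 4 of 55 chains and fell for 0, beside 0.964% of all genes called higher and 0.0993% called lower. These were *Col4a1*, whose effect rose by 1.28 (SE 0.28, adjusted p = 0.00561), *Lamc1* by 0.82 (SE 0.15, adjusted p = 0.000269), *Lamb1* by 0.79 (SE 0.12, adjusted p = 1.19e-05) and *Col2a1* by 0.95 (SE 0.19, adjusted p = 0.00119). The *Col2a1* change was 0.44 in the deposited ratio (adjusted p = 0.914) and 0.73 with an offset of 0 (adjusted p = 0.597), where it did not pass. *Col4a2*, at 1.13 (SE 0.31, adjusted p = 0.0814), and *Col5a3*, at 0.48 (SE 0.13, adjusted p = 0.0575), missed the threshold. Both passed with slide as a block (1.24, adjusted p = 0.00775, and 0.45, adjusted p = 0.0256) and with scan day as a block (1.14, adjusted p = 0.0332, and 0.47, adjusted p = 0.0278), and *Col5a3* also passed without the 4 arrays that stood apart (0.47, adjusted p = 0.02). The *Col2a1* change was made up of unlike parts, since the control mice fell from a median of 3.58 on P12 to 2.63 on P17 while the OIR mice stayed at a median of 3.26.

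**Figure D3:**
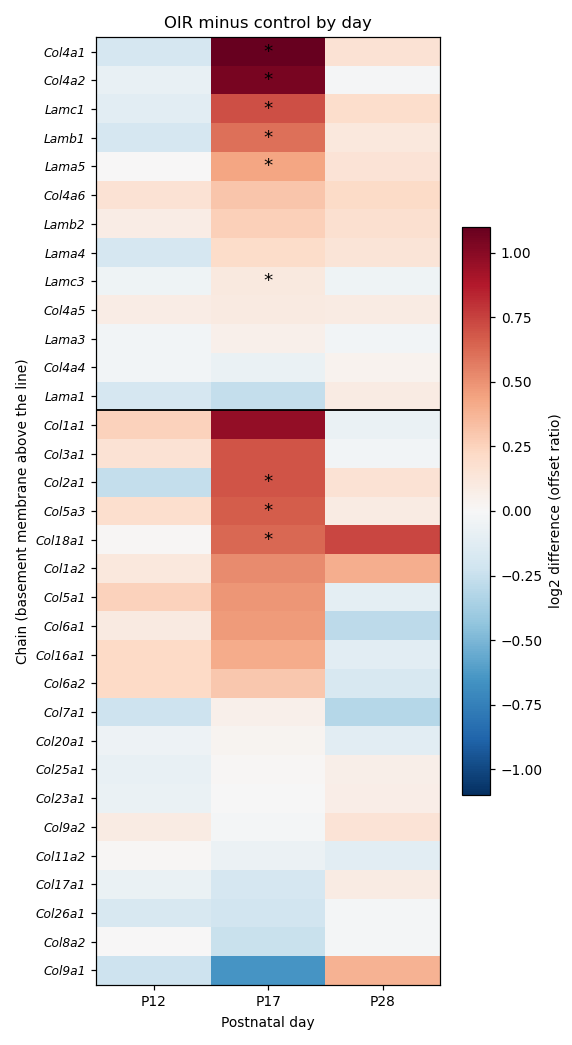
Log2 difference between OIR and control mice on P12, P17 and P28 for the 33 chains well above background on more than 38 of 77 arrays; red is higher and blue lower in the OIR group, and an asterisk marks an adjusted p under 0.05. The 9 asterisks all stand on P17, and the strongest colour on P28 is that of *Col18a1* at 0.74.

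On P28, 0 of 55 chains passed, beside 0.132% of all genes called higher and 0.00473% called lower. An unadjusted p under 0.05 was found for 6 chains, a number with no count over all genes to set it against. *Col4a1* lay at -1.70, -0.97 and 0.36 in the OIR mice and at -1.86, -1.26 and 0.85 in controls, a difference of 0.16 (SE 0.24, 95% interval -0.34 to 0.66). *Col4a2* (-0.02, SE 0.25), *Lamb1* (0.12, SE 0.09) and *Lamc1* (0.20, SE 0.10) did not pass either, and their intervals included 0. On the 3 slides that carried both groups, the mean of the OIR mice was higher on 3 of 3 for each of these chains and for *Col4a1*. The median difference over slides was 0.20 for *Col4a1*, 0.16 for *Col4a2*, 0.14 for *Lamb1* and 0.27 for *Lamc1*. Of the partner genes, *Fn1* was still higher by 0.67 (SE 0.11, adjusted p = 0.00767), and *Pcolce* by 1.46 (SE 0.21, adjusted p = 0.00152).

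*Col18a1* had the largest difference of the chains on P28. It lay at -0.90, 0.45 and 0.76 in the OIR mice and at -1.0, -0.59 and 0.33 in controls, so that 7 of 13 OIR mice were above every control. The difference was 0.74 (SE 0.16, 95% interval 0.40 to 1.07), with an adjusted p of 0.111. It passed in a fit over all 6 groups (0.74, adjusted p = 0.00526), with array weights (0.81, adjusted p = 0.0302), in the retina channel without the reference (0.72, adjusted p = 0.0342) and without the 4 arrays that stood apart (0.79, adjusted p = 0.026). It did not pass with slide as a block (0.71, adjusted p = 0.199) or among the 11 OIR and 9 control mice of the last scan day (0.71, adjusted p = 0.279). Without the 4 arrays that stood apart, 4 chains were called higher on P28, beside 2.72% of all genes. Besides *Col18a1* these were *Col9a1* (0.67, adjusted p = 0.044), *Lama4* (0.18, adjusted p = 0.0351) and *Col17a1* (0.13, adjusted p = 0.0374), and none of the 4 passed with slide or scan day as a block.

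From P17 to P28 the OIR effect fell for 1 of 55 chains and rose for 0, beside 0.52% of all genes called lower and 0.0567% called higher. That chain was *Col5a3*, whose effect fell by 0.58 (SE 0.12, adjusted p = 0.00959). With slide as a block its change was -0.46 and did not pass (adjusted p = 0.0521). *Lamb1*, whose effect fell by 0.48 (SE 0.12, adjusted p = 0.0538), *Lamc1* by 0.51 (SE 0.15, adjusted p = 0.127) and *Col4a1* by 0.93 (SE 0.27, adjusted p = 0.142) missed the threshold. Without the 4 arrays that stood apart, 23 chains passed, 4 rising and 19 falling, beside 13.3% of all genes called higher and 10.1% called lower. Among them were *Lamb1* (-0.47, adjusted p = 0.00925), *Lamc1* (-0.58, adjusted p = 0.0103), *Col4a1* (-0.87, adjusted p = 0.0239) and *Col4a2* (-1.06, adjusted p = 0.019). With scan day as a block *Lamb1* passed (-0.53, adjusted p = 0.02), and the other 3 did not. The 2 P28 arrays among the 4 were the only OIR arrays of that day outside the last scan day.

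In control mice, 4 of 55 chains changed from P12 to P17, 2 higher and 2 lower, beside 1.18% of all genes called higher and 1.13% called lower. *Col7a1*, the anchoring fibril collagen, lay at -0.08, 0.74 and 1.15 on P12 and at 0.46, 1.5 and 1.91 on P17, a rise of 0.70 (SE 0.15, adjusted p = 0.00225). *Col20a1*, a fibril-associated chain, rose by 0.35 (SE 0.06, adjusted p = 6.39e-05). *Col2a1* fell by 0.81 (SE 0.13, adjusted p = 3.28e-05), and *Col5a3* fell by 0.39 (SE 0.09, adjusted p = 0.00702). In the deposited ratio *Col2a1* did not pass at -0.46 (adjusted p = 0.766), nor did it with an offset of 0 (-0.60, adjusted p = 0.415). Within the 3 scan days that held both ages, *Col7a1* rose by 0.45, 0.81 and 0.99, whereas the *Col2a1* difference was -1.08, -0.91 and, on the last day, -0.11. No basement membrane chain was called between these ages.

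From P17 to P28, 16 of 55 chains changed in control mice, 14 lower and 2 higher, beside 7.35% of all genes called lower and 11.8% called higher. Under median centring in place of loess, which moved the median of all genes by 0.48, the split turned to 24 higher and 10 lower, beside 57.2% and 28.2% of all genes, and *Lamb1* (0.78), *Lamc1* (0.67), *Col1a2* (0.59), *Col2a1* (0.68) and others changed sign. Among the 14 lower were 6 of the 11 fibrillar chains (*Col1a1*, *Col1a2*, *Col3a1*, *Col5a1*, *Col5a3* and *Col2a1*), the laminin chains *Lamc1* and *Lamb1*, *Col12a1*, *Col16a1*, *Col6a2* and the short chains *Col8a1* and *Col8a2*. With slide as a block there were 17, 16 lower and 1 higher, beside 9.15% and 11.8% of all genes, and 13 chains were called in both fits. *Col23a1* (0.42) and *Col22a1* (0.11) were the 2 higher chains, and neither passed with the block.

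The size of the fibrillar fall moved with the scan day. *Col1a1* in control mice on P28 lay at -4.97, -4.76 and -4.58 on the 5 arrays of earlier days and at -7.26, -7.02 and -6.64 on the 9 arrays of the last day, 2 sets that did not overlap. Its fall from P17 to P28 was 1.42 (SE 0.39, adjusted p = 0.00908) in all, -0.16 within the third scan day (5 P28 against 3 P17 mice) and -1.37 within the last (9 against 5), and -0.94 with slide as a block. *Col3a1* fell by 1.08 (SE 0.28, adjusted p = 0.00466) in all, with -0.11 and -1.08 within those days. *Col5a1*, at -0.66 (SE 0.23), turned to 0.05 in the deposited ratio. The part of the scan day in these falls was not tested beyond these fits.

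**Figure D4:**
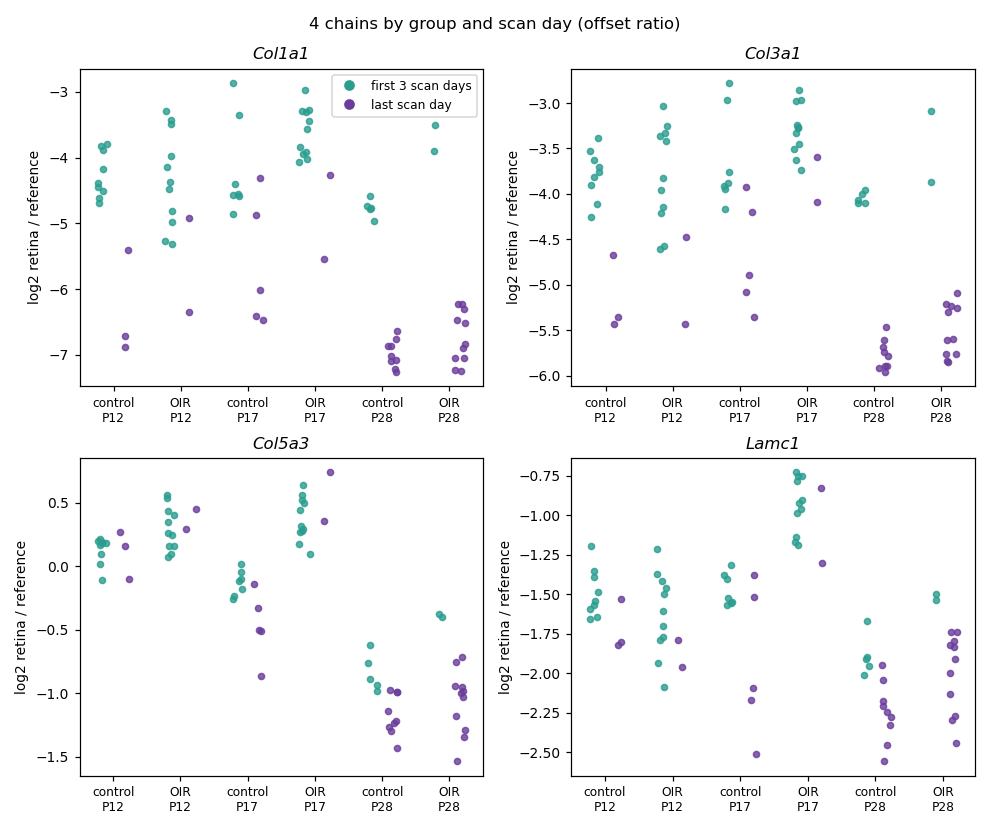
Log2 ratio of retina over reference (offset ratio) for *Col1a1*, *Col3a1*, *Col5a3* and *Lamc1* in every mouse of the 6 groups; green points are arrays of the first 3 scan days and purple points those of the last. For *Col1a1* on P28 the purple points lie at -6.22 or below and the green points at -4.97 or above, while *Col5a3* fell between P17 and P28 in control mice on both sets.

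*Col5a3* and *Lamc1* fell by similar amounts within each scan day. *Col5a3* in controls lay at -0.86, -0.21 and 0.02 on P17 and at -1.43, -0.99 and -0.62 on P28, a fall of 0.78 (SE 0.09, adjusted p = 1.81e-09), with -0.70 within the third and -0.70 within the last scan day. *Lamc1* lay at -2.51, -1.54 and -1.32 and at -2.56, -2.11 and -1.67, a fall of 0.46 (SE 0.10, adjusted p = 0.0011), with -0.35 and -0.31 within those days. *Lamb1* fell by 0.42 (SE 0.09, adjusted p = 0.000258), with -0.12 and -0.50. *Col8a2*, a chain of the network beneath the corneal endothelium, fell by 0.44 (SE 0.07, adjusted p = 8.12e-06), with -0.27 and -0.71. *Col9a1* was not called at -0.28 (SE 0.25, adjusted p = 0.504), but differed by -0.78 and -0.60 within those days and was called lower with slide (-0.65, adjusted p = 0.000874) and with scan day (-0.64, adjusted p = 0.00104) as a block. *Col4a1*, at 0.03 (SE 0.19), and *Col4a2*, at -0.02 (SE 0.21), did not pass, and the 95% interval of *Col4a1* was -0.35 to 0.41. Among markers, *Acta2* (-0.93) of the 10 in the mural list and *Dcn* (-1.03) of the 8 in the fibroblast list were lower between the same ages. Over all genes, 7.35% were called lower and 11.8% higher. The other members of these lists are covered here only by the mean ratios that follow. The mean ratio over the 10 mural markers in controls ran from -1.07 to -0.53 on P17 and from -1.32 to -0.79 on P28. Over the 8 fibroblast markers it ran from -1.92 to -0.73 and from -2.05 to -1.24. No marker was fitted with slide or scan day as a block.

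The mice of a group also varied among themselves, and the type IV pairs varied together to unlike degrees. After subtraction of the 6 group means, *Col4a1* and *Col4a2* correlated over 77 mice at Pearson's r of 0.912 and Spearman's rho of 0.898 (permutation within groups, 2-sided p = 1e-05 for each, the smallest that 100000 permutations can give, adjusted over 3 pairs 1.5e-05). Without the 2 mice farthest from the *Col4a1* median, r was 0.892, and within the 6 groups it ran from 0.845 to 0.987. *Col4a5* and *Col4a6* correlated at 0.784 (rho 0.732, p = 1e-05, adjusted p = 1.5e-05, r without 2 mice 0.745), but within groups r ran from -0.07 to 0.920. *Col4a3* and *Col4a4*, of which *Col4a3* was well above background on 23 arrays, reached 0.416 (rho 0.253, p = 0.00285 for r and 0.0377 for rho by permutation). Without the 2 mice farthest from the *Col4a3* median, r was 0.215. In the deposited ratio r was 0.335, and 0.319 without 2 mice, while in the retina channel without the reference it was 0.168. The mice share the reference RNA, slides and scan days. The mean ratio over 10 lens markers ran from 0.03 to 3.31 in control mice on P28 and from 0.02 to 2.57 in OIR mice. On P12 and P17 its highest value in any group was 0.82. The part of lens tissue in these correlations and in the P28 spread of *Col4a1* was not tested.

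**Figure D5:**
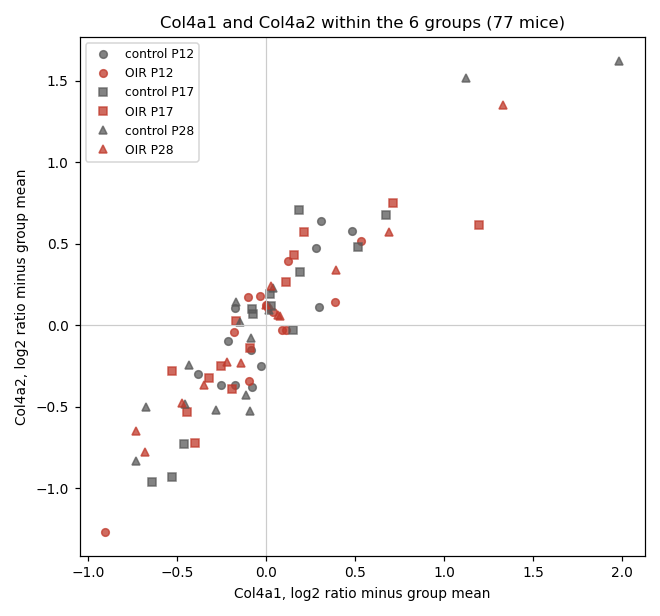
Log2 ratio of *Col4a2* against that of *Col4a1* in 77 mice, each minus the mean of its group; circles are P12, squares P17 and triangles P28, red OIR and grey control. The points follow a line with Pearson's r of 0.912, and the highest on the *Col4a1* axis is a control mouse of P28.

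Among all 21154 genes, *Col4a2* had the highest correlation with *Col4a1* across the 77 mice after the group means were subtracted. It was followed by *Nid1* (r = 0.85), the nidogen that links type IV collagen to laminin, *Nupr1* (0.832), *Hspb2* (0.814) and *Carhsp1* (0.777), and *Col4a2* stayed first (0.934) when slide means were subtracted too. By the same measure *Lama2*, which was not called on P17, ranked 6 at 0.771, *Col4a6* 10 at 0.742, *Lamb1* 26 at 0.667, *Lamc1* 59 at 0.583 and *Lama5* 90 at 0.549. With slide means subtracted *Lamb1* ranked 65, *Lamc1* 69 and *Lama5* 154. *Col2a1*, which rose with them on P17, correlated at -0.29. These correlations are descriptions across arrays of 1 tissue.

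The promoter windows of the chains were searched for 4 short motifs on both strands. A window was found for 40 of 55 chains, 44 windows in all, and for 6 of the 9 chains called on P17. GGGCGG, the core of a GC box, was in 59.1% of the 44 chain windows and in 35.7% of all 32851 promoters of the same length. CCAAT was in 31.8% and 37.4%, and the hypoxia response core written as ACGTG was in 11.4% and 19.6% and as GCGTG in 27.3% and 32.4%. The *Col4a1* and *Col4a2* windows shown above each hold 1 GCGTG, 1 CCAAT and no ACGTG. These matches are descriptions of the letters in the windows.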

How the data were processed

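Retinal RNA of 77 mice and a universal mouse reference RNA were labelled in 2 colours and hybridised to Agilent arrays of 62976 spots on 11 slides. The deposited scanner files, per the file headers, hold the intensity of each spot in both channels as extracted by the authors with Agilent Feature Extraction 10.7.3.1, with spot flags. The authors also deposited a table of log2 ratios, which equalled the log2 of processed Cy3 over Cy5 signal for 100% of single-spot probes within 0.001. This table is the deposited ratio and was used as an alternative.

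From median signals, background was corrected by normexp with an offset of 50, and arrays were normalised by loess with limma 3.58.1 in R 4.3.3. Control spots were left out, as were spots flagged as outliers (0.592% to 0.951% per array), and spots of a probe were averaged. The transcript named for each of 55681 non-control probes was matched to a RefSeq symbol, which named 28026 probes of 21154 genes. The probe with the brightest mean signal represented a gene.

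Groups were compared with limma on each day, and changes of the OIR effect and control ages in a model over all 6 groups, which share the P17 mice. P-values were adjusted by the Benjamini-Hochberg method over all probes, with a threshold of 0.05, and measure the spread between mice. No paired analysis was possible because mouse numbers are not shared between groups. The number of arrays limits the precision. Genes named were the chains called in a comparison (at most the 12 with the largest difference), 15 chains listed whatever their values, the 5 genes most like *Col4a1*, and of each other list at most 4 called genes. Chains named beyond that rule, among them *Col22a1* and *Col23a1* between control ages, were added after their values were seen. The chains and lists were chosen with earlier results of these data known. Alternatives changed the background correction, normalisation, filter, probe choice, model, slide block, scan day block and arrays used. The values of some items are not reported here. The scripts were tested on simulated data.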

Additional observations from a re-analysis of the deposited data

Results flagged for a closer look

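The OIR effect differed between days by the test of the change itself for 5 chains. From P12 to P17 it rose for *Col4a1* by 1.28, for *Lamc1* by 0.82, for *Lamb1* by 0.79 and for *Col2a1* by 0.95 on the log2 scale. The *Col2a1* change did not pass in the authors' table (0.44), with an offset of 0 (0.73), under median centring (0.85) or in the authors' table with slide as a block (0.36). The *Col4a1*, *Lamc1* and *Lamb1* changes did not pass under median centring. From P17 to P28 the effect of *Col5a3* fell by 0.58, a change that did not pass with slide as a block or under median centring. The P17 mice enter both changes.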

How the results depend on the processing

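On P12, 0 chains passed under all 13 alternatives. On P17, 9 chains passed, against 15 in the authors' table, 15 in the retina channel without the reference and 0 under median centring. All but *Lamc3* and *Col2a1* of the 9 lost their call under median centring only. On P28, 0 passed, against 1 each in the retina channel, with array weights and in the fit over 6 groups, and 4 without the arrays that stood apart. For the change from P12 to P17, 4 passed, against 10 in the authors' table with or without the slide block, 8 without background subtraction, 9 with an offset of 0, 0 under median centring, 12 in the retina channel, 8 with the slide block, 8 with array weights and 7 with the scan day block. For the change from P17 to P28, 1 passed, against 5 in the authors' table (4 with the slide block), 3 without background subtraction, 4 with an offset of 0, 0 under median centring, 9 in the retina channel, 2 with the filter on dim probes, 0 with the slide block, 3 with array weights, 2 with the mean of probes, 23 without the arrays that stood apart and 2 with the scan day block. In control mice, median centring gave 0 against 4 from P12 to P17 and 34 against 16 from P17 to P28 (24 higher), where array weights gave 25. From P17 to P28 in controls, median centring, which moved the median of all genes by 0.48, reversed *Lama5* (0.84), *Lamb1* (0.78), *Lamc1* (0.67), *Col4a2* (0.99), *Col16a1* (0.43), *Col1a2* (0.59), *Col2a1* (0.68), *Col3a1* (0.0372), *Col5a1* (0.25), *Col5a3* (0.0369), *Col18a1* (1.01) and *Col6a2* (0.18), and *Col5a1* also reversed in the authors' table (0.0521) and the retina channel (0.0882). The correlation of *Col4a3* with *Col4a4* was 0.17 in the retina channel and 0.23 with slide means subtracted, and no longer passed. The share of all genes called moved with the setting too, so the counts alone do not compare the settings. Where no share is given, a count does not show whether chains were called more often than all genes. On P17, 1.65% were called higher in the main fit and 3.24% in the authors' table. For the change from P12 to P17 these were 0.964% and 2.5%. For that from P17 to P28, 0.52% were called lower in the main fit and 10.1% without the arrays that stood apart. In control mice from P17 to P28, 11.8% were called higher in the main fit and 57.2% under median centring. The cause of these differences was not tested. Of 405 alternative values of 33 called results, 343 kept direction and call, 51 lost the call and 11 reversed. Of 1084 alternative values of 86 results that were not called, 965 stayed uncalled and 119 were called. The scan day block, the last scan day alone, the authors' table with the slide block and the arrays left out were chosen after seeing the data. Signals near background limit the dim chains.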
